A study of Mus musculus with 17 samples.

Results

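The Kruppel-like factor genes Klf2, Klf3, Klf4, Klf5, Klf6, Klf7, Klf9, Klf10, Klf13 and Klf16 were followed through 17 RNA-seq libraries of mouse stem cell lines and reference cells. These 10 genes were taken by gene symbol from the 23891 symbols in the tables, each by the RefSeq transcript with the highest mean FPKM (mapped fragments scaled to transcript length and library size) over the 17 libraries. A further 7 Klf genes are listed in the tables and are described beside them. Klf10 has 2 listed transcripts and the other 9 genes have 1. All 10 genes reached 1 FPKM in at least 16 of the 17 libraries. On mm9, the build of the tables, they lie at chr8:74842961-74845553 (Klf2), chr5:65194762-65221368 (Klf3), chr4:55540009-55545347 (Klf4), chr14:99697910-99712628 (Klf5), chr13:5860735-5869639 (Klf6), chr1:64082247-64167963 (Klf7), chr19:23215716-23241401 (Klf9), chr15:38224161-38230466 (Klf10), chr7:71031237-71083801 (Klf13) and chr10:80029866-80040041 (Klf16), each locus spanning the exons and introns of the transcript.

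Kruppel-like factors are transcription factors that bind CACCC and other GC-rich sequences through a conserved block of zinc fingers at their C-terminal end, and they differ in the protein partners that their N-terminal parts recruit. Klf2, Klf4, Klf5, Klf6 and Klf7 are mostly described as activators, Klf3 recruits the corepressor CtBP, and Klf9, Klf10, Klf13 and Klf16 can recruit the corepressor Sin3A. In mouse embryonic stem cells, Klf2, Klf4 and Klf5 are known to help maintain the undifferentiated state, Klf4 downstream of leukaemia inhibitory factor (LIF), and Klf4 is 1 of the factors used to reprogramme fibroblasts.

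The study cultured spermatogonial stem cells (SSCs), the germline stem cells of the adult testis, and the multipotent cells derived from them (MASCs, multipotent adult spermatogonial-derived stem cells), which arose spontaneously in long-term SSC cultures and were picked as colonies. There were 4 SSC lines, of which SSC.1 and SSC.2 were Oct4-GFP, SSC.3 was C57Bl/6J and SSC.4 was 129mix. The 6 MASC lines comprised MASC.1 and MASC.2 of Oct4-GFP, MASC.3 and MASC.4 of 129mix, and MASC.5 and MASC.6 of Gt(ROSA26)Sor-lacZ background. The 2 embryonic stem cell (ESC) lines were ESC.1 of Oct4-GFP and ESC.2 of 129mix. The 2 induced pluripotent stem (iPS) cell lines, 129mix, came from E13.5 fibroblasts that carried tetO-4F2A and H3.3B-HA and received doxycycline at 2 μg/ml. That cassette itself includes Klf4, so reads from it and from the endogenous gene cannot be told apart. The 2 haematopoietic stem and progenitor cell (HSC) cultures were lineage-depleted C57Bl/6J bone marrow cells kept with soluble Kit ligand on E4ORF1-HUVEC endothelial feeders. The single library of mouse embryonic fibroblasts (MEFs) was 129mix, carried H3.3B-HA and was taken at E13.5. SSCs grew on MEF feeders with GDNF at 10 ng/ml, bFGF at 10 ng/ml and EGF at 20 ng/ml, whereas MASCs, ESCs and iPS cells grew on MEF feeders with serum replacement and LIF at 1000 U/ml. The growth medium and the cell type therefore cannot be told apart in comparisons with SSCs.

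Markers were read before the genes of interest. All 6 germ cell markers (Zbtb16, Gfra1, Ret, Ddx4, Dazl and Etv5) reached 1 FPKM in each SSC library. All 6 pluripotent cell markers (Pou5f1, Nanog, Zfp42, Esrrb, Tdgf1 and Fgf4) did so in each MASC, ESC and iPS library. In SSC libraries, 2 or 3 of the 6 pluripotent markers also reached 1 FPKM. Their sums were 113 FPKM in SSC.1 and 7.35 to 16.3 FPKM in the other SSCs, against 1280 to 1634 FPKM in MASCs. In MASC libraries, 2 to 4 of the 6 germ cell markers reached 1 FPKM. Germ cell sums were 88.9 to 159 FPKM in MASCs and 462 to 683 FPKM in SSCs. The HSC libraries carried all 6 haematopoietic markers and also all 6 mast cell markers, whose summed level was 50700 and 32012 FPKM against at most 37.8 FPKM elsewhere. Of these mast cell markers, 4 of 6 also reached 1 FPKM in SSC.3, MASC.2 and ESC.1, with sums of 23.4 to 37.8 FPKM. The summed FPKM of 6 fibroblast markers, with Col1a1 left out because it is listed at 0 in MEFs, was 5236 in MEFs, 8.78 to 678 in SSCs, 16.3 to 832 in MASCs, 55.4 and 316 in ESCs, 4.24 and 31.8 in iPS cells, and 2.20 and 323 in HSC cultures. In these bulk libraries, fewer cells of a type and less RNA per cell cannot be told apart. Cufflinks coverage at 1 FPKM was 1.26 to 3.23 reads per base among the libraries, and the files give no read counts.

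To place the genes beside the sequence that the family is known to bind, the 250 bases before the transcription start were read from RefSeq on GRCm38.p6 and searched for CACCC on both strands. Promoters were found for 7 of the 10 genes, namely Klf2, Klf3, Klf4, Klf6, Klf7, Klf9 and Klf13. The promoters of Klf2, Klf3, Klf6 and Klf9, which were higher in MASCs than in SSCs, and of Klf7, which was lower, are shown 5′ to 3′ in lower case, with CACCC or its complement GGGTG in capitals.
Klf2: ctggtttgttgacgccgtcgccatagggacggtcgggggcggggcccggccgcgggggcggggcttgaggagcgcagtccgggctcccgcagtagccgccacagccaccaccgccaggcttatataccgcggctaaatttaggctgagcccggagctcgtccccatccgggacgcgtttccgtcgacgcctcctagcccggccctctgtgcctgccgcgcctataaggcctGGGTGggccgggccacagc
Klf3: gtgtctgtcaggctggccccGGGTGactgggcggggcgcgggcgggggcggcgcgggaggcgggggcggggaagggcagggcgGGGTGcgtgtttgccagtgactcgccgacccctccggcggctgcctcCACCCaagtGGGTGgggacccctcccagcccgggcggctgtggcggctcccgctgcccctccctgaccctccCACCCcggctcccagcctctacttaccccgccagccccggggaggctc
Klf6: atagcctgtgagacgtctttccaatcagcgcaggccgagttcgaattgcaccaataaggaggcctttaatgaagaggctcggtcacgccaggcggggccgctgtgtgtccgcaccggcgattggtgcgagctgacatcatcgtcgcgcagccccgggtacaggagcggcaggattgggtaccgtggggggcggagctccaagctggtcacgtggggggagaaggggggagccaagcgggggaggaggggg
Klf9: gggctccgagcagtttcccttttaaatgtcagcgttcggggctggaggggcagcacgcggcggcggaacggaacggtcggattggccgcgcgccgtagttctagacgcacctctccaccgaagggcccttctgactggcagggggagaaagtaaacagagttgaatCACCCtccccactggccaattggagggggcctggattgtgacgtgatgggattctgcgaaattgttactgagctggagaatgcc
Klf7: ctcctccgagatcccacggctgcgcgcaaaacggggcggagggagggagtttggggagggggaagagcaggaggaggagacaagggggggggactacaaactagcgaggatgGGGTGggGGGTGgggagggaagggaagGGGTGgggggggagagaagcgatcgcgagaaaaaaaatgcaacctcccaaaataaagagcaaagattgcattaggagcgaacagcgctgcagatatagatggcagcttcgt
They lie at chr8:72318812-72319061, plus strand; chr5:64803271-64803520, plus strand; chr13:5861239-5861488, plus strand; chr19:23140976-23141225, plus strand; and chr1:64121390-64121639, minus strand. Klf3 held 5 matches, at -230, -167, -120, -111 and -48 from the transcription start, and Klf7 held 3, at -138, -131 and -111. Klf2 and Klf9 held 1 each, at -19 and -84, and Klf6 held none. CACCC stood in 5 of the 7 promoters, beside 52.0% of all 32851 promoters of this length. The GC box GGGCGG, searched on both strands, stood in 6 of the 7 beside 32.7% of all promoters. GC content was 59.2% to 78.4% over the 7, above the median of 52.4% over all promoters. The letters TTCNNNGAA, the core of a STAT site, occurred in Klf9, at -33, and in 7.02% of all promoters, and CCAAT stood in 3 of the 7 beside 33.9% of all promoters. The CArG box, the site of serum response factor, was in 0 of the 7 and in 1.47% of all promoters.

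Comparing MASCs with SSCs with limma on log2(FPKM + 1), with Benjamini-Hochberg adjusted p-values over 32661 transcripts, 5 of the 10 genes were higher in MASCs at an adjusted p under 0.05, where 11.4% of all transcripts were. These were Klf2, Klf3, Klf5, Klf6 and Klf9. Klf7 was the 1 gene that was lower, where 19.5% of all transcripts were, and Klf4, Klf10, Klf13 and Klf16 did not pass the test. With a log2 difference of at least 2 required as well, Klf2, Klf5 and Klf6 remained, 3 of the 10 genes beside 1.73% of all transcripts. The median difference of the 10 genes was 1.33 on the log2 scale, beside -0.16 over expressed transcripts. A difference here is that of mean log2(FPKM + 1), which understates the fold of genes with low values.

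**Figure D1:**
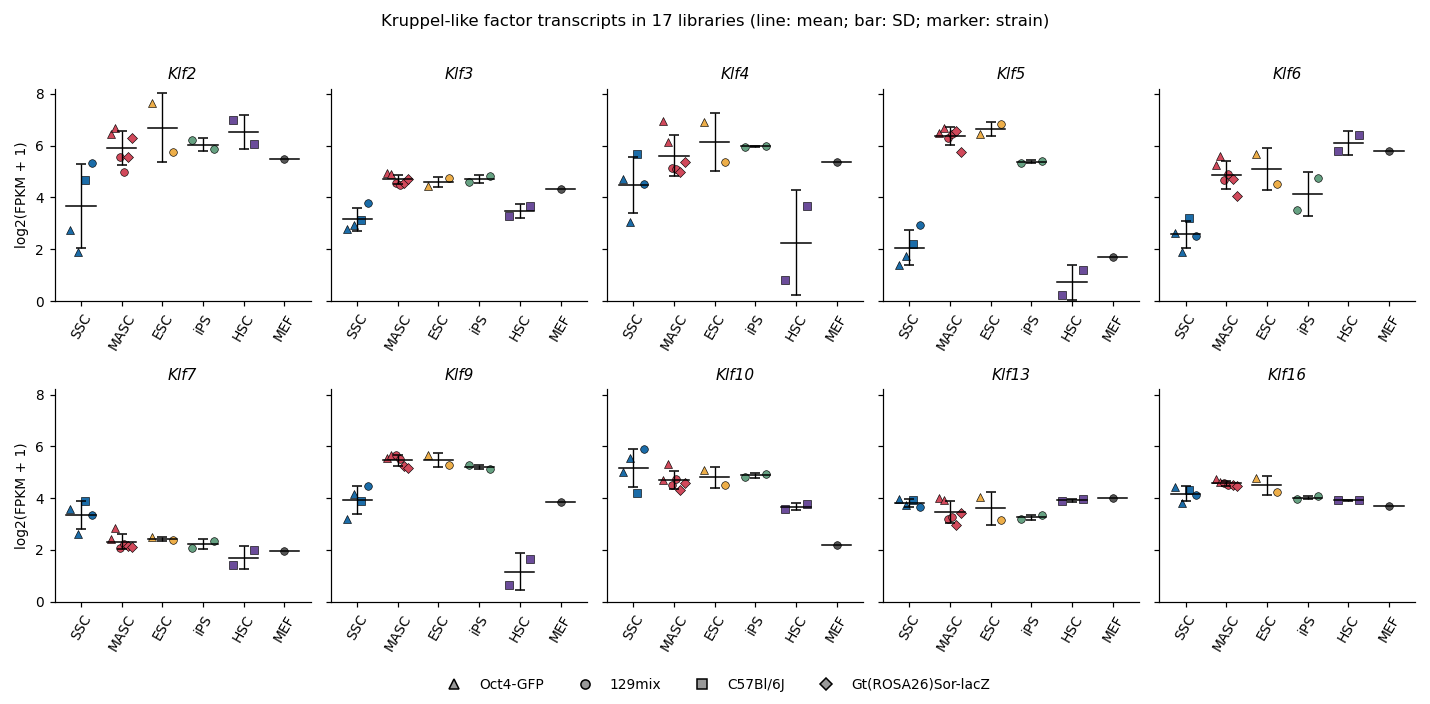
Level of each of the 10 Kruppel-like factor transcripts as log2(FPKM + 1) on the vertical axis for the cell types on the horizontal axis, with 1 point per library, marker shape for strain, a line for the mean and a bar for the SD. Klf5 lies between 1.60 and 6.64 FPKM in SSCs and between 52.2 and 102 FPKM in MASCs, whereas the Klf13 points of SSCs, at 11.6 to 14.6 FPKM, lie within the MASC range of 6.88 to 15.2 FPKM.

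Klf5, an activator that is needed in the early embryo and in epithelial progenitors, showed the largest difference of the 10 genes. It stood at 1.60, 2.37, 3.55 and 6.64 FPKM in SSC.1 to SSC.4. In MASCs the lowest value was 52.2, the median 87.1 and the highest 102 FPKM. ESCs held 85.9 and 113 FPKM, and iPS cells 39.5 and 41.6 FPKM. SSC values did not overlap with those of MASCs, ESCs or iPS cells, and both iPS lines lay below every MASC and ESC line. The log2 difference between MASCs and SSCs was 4.30 ± 0.29 (SE; adjusted p = 5.99e-06), which is 19.8-fold on this scale. It was 5.01 between the Oct4-GFP lines (2 MASCs, 2 SSCs) and 3.44 between the 129mix lines (2 MASCs, 1 SSC). Klf5 was also higher in ESCs than in SSCs by 4.58 ± 0.39 (adjusted p = 5.45e-05) and in iPS cells than in SSCs by 3.31 ± 0.40 (adjusted p = 0.000105). MEFs had 2.29 FPKM, with Cufflinks bounds of 1.94 and 2.64. HSC cultures stood lowest, at 0.181 and 1.30 FPKM. They were below MASCs by 5.65 on the log2 scale, with an adjusted p of 3.31e-07. The genes of most like pattern over the 17 libraries, among 15273 genes, were Adrb3, 1190005I06Rik and Ss18, with Pearson's r of 0.98, 0.98 and 0.98.

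Klf2, which is best known from endothelial cells and T cells and is a factor of the naive pluripotent state, spanned the widest range of the 10 genes among SSCs on the log2 scale. It was listed at 5.72 and 2.67 FPKM in the Oct4-GFP lines SSC.1 and SSC.2, at 24.7 FPKM in SSC.3 and at 39.0 FPKM in SSC.4. MASCs ranged from 30.4 to 100 FPKM with a median of 61.5. The highest SSC value thus overlapped with the MASC range. The log2 difference was 2.26 ± 0.71 (adjusted p = 0.0375), or 2.62 (adjusted p = 0.0969) with strain as a block, and 4.25 within the Oct4-GFP lines and -0.05 within the 129mix lines, where SSC.4 at 39.0 FPKM lay between MASC.4 at 30.4 FPKM and MASC.3 at 46.5 FPKM. With each library left out in turn, the Klf2 call held in 5 of 12 fits and was lost without SSC.1, SSC.2, MASC.1, MASC.2, MASC.3, MASC.5 or MASC.6, at adjusted p values up to 0.103. Among ESCs, Klf2 stood at 196 FPKM in the Oct4-GFP line and 53.1 FPKM in the 129mix line. The difference from SSCs was 3.03 ± 0.96 (adjusted p = 0.0498), and the call held in 2 of 12 fits with a library left out, with 2.10 (adjusted p = 0.334) without ESC.1. Over the 17 libraries, Ifitm2, Zfp511 and Cpne8 had the most like patterns, with r of 0.87, 0.87 and 0.86.

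Klf4, the target of LIF signalling and a reprogramming factor, did not pass the test between MASCs and SSCs. It was at 25.0, 7.21, 50.1 and 21.8 FPKM in SSC.1 to SSC.4, and at 30.7 to 123 FPKM, with a median of 37.1, in MASCs. SSC.3 lay above 4 of the 6 MASC lines, so that the groups overlapped. The fibroblast sum was highest among SSCs in SSC.3 (678 FPKM) and lowest in SSC.2 (8.78 FPKM). Its part in the Klf4 level was not tested. The log2 difference was 1.13 with a 95% interval of -0.18 to 2.44 (adjusted p = 0.185). Within strain it was 2.68 in Oct4-GFP and 0.60 in 129mix lines. Without the 4 libraries of the highest fibroblast sums, described below, the Klf4 difference was 1.57 and still did not pass the test. ESCs held 120 and 39.9 FPKM, and iPS cells, which carry the Klf4 cassette, held 60.9 and 62.4 FPKM. Crip2, Notch3 and Hspg2 were the genes of most like pattern, with r of 0.93, 0.91 and 0.90.

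Among the remaining activators, Klf6 and Klf7, close relatives in sequence, moved in opposite directions. Klf6, a widely expressed factor induced by injury, was at 5.24, 2.76, 8.24 and 4.75 FPKM in SSC.1 to SSC.4 and at 15.4 to 48.1 FPKM, median 27.0, in MASCs. Groups did not overlap, and the log2 difference was 2.30 ± 0.36 (adjusted p = 0.000916), with 3.17 within Oct4-GFP and 2.27 within 129mix lines. ESCs were at 49.4 and 22.2 FPKM, with a difference from SSCs of 2.53 ± 0.48 (adjusted p = 0.00467), which was 1.96 (adjusted p = 0.0584) without ESC.1. Klf7, known from developing neurons, was at 10.9, 5.09, 13.7 and 9.06 FPKM in SSCs. In MASCs it ranged from 3.27 to 6.23 FPKM with a median of 3.60, so that SSC.2 lay within the MASC range. The difference of Klf7 was -1.03 ± 0.24 on the log2 scale (adjusted p = 0.00903), with -0.44 within Oct4-GFP and -1.16 within 129mix lines. After quantile normalization, which moved the median over expressed transcripts from -0.16 to -0.01, the Klf7 difference was -0.77 (adjusted p = 0.0503), and with strain as a block it was -0.73 (adjusted p = 0.0921). Between ESCs and SSCs, Klf7 differed by -0.91 with an adjusted p of 0.0747. Over the 17 libraries, r between Klf6 and Klf7 was -0.62, the lowest of the 45 pairs of the 10 genes. Basp1, Trim8 and Myl6 had the patterns most like Klf6, with r of 0.95, 0.93 and 0.92. For Klf7, Acly and Edc4 were among them, with r of 0.95 and 0.95.

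Klf3, the CtBP-recruiting repressor, stood at 5.93, 6.64, 7.72 and 12.9 FPKM in SSCs and at 21.6 to 29.4 FPKM, median 24.0, in MASCs. ESCs were at 20.9 and 25.7 FPKM and iPS cells at 23.3 and 27.5 FPKM, and neither overlapped with SSCs. Klf3 was higher in MASCs than in SSCs by 1.53 ± 0.19 on the log2 scale (adjusted p = 0.000218), by 2.06 within Oct4-GFP and 0.73 within 129mix lines. It was higher by 1.44 ± 0.25 in ESCs (adjusted p = 0.00304) and by 1.56 ± 0.24 in iPS cells (adjusted p = 0.00064). Ppm1a, Actn4 and Bcat1 were most like it, with r of 0.95, 0.93 and 0.93.

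Klf9 responds to thyroid hormone and glucocorticoids. Of the factors named above as recruiting Sin3A, it was the 1 gene that passed the test between MASCs and SSCs. Klf genes outside the followed set, described below, were not counted here. Klf9 was at 8.15, 16.7, 14.0 and 21.1 FPKM in SSC.1 to SSC.4, and at 34.8 to 49.3 FPKM, median 45.3, in MASCs. ESCs held 49.7 and 37.6 FPKM, and iPS cells 37.5 and 34.3 FPKM, with no overlap with SSCs. Klf9 differed by 1.54 ± 0.23 on the log2 scale between MASCs and SSCs (adjusted p = 0.000649), by 1.92 in Oct4-GFP and 1.13 in 129mix lines. Klf9 was higher in ESCs by 1.54 ± 0.30 (adjusted p = 0.00552), which became 1.34 (adjusted p = 0.0592) without ESC.1. Its pattern ran closest to Akap12, Lgr4 and Gab1, with r of 0.98, 0.98 and 0.96, and among the family to Klf5, with r = 0.89.

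For Klf10, Klf13 and Klf16, the test between MASCs and SSCs was not passed. Klf10, also called TIEG1 for its early induction by TGF-β, was at 31.5, 46.2, 17.3 and 58.6 FPKM in SSCs and at 19.0 to 39.1 FPKM in MASCs. Its log2 difference was -0.48 (95% interval -1.21 to 0.25; adjusted p = 0.325), with -0.29 within Oct4-GFP and -1.28 within 129mix lines, and -0.80 (adjusted p = 0.0484) without SSC.3. The second Klf10 transcript made up at most 1.88% of the gene's FPKM in any library. Klf13, a regulator of chemokine Ccl5 in T cells, was at 14.6, 12.2, 14.3 and 11.6 FPKM in SSCs and at 6.88 to 15.2 FPKM in MASCs, a difference of -0.34 (95% interval -0.88 to 0.20; adjusted p = 0.35). Klf16 was at 20.8, 13.1, 19.2 and 16.2 FPKM in SSCs and at 21.1 to 25.7 FPKM in MASCs, where the values did not overlap. Its difference of 0.39 ± 0.14 had an adjusted p of 0.0566, which was 0.0318 without SSC.1, 0.0357 without ESC.1 or ESC.2, and 0.0208 after quantile normalization. The genes of most like pattern were Cdca7, Foxo4 and Rcl1 for Klf10 (r of 0.91, 0.91 and 0.91), Leprel2, Romo1 and Ppp1r15a for Klf13 (r of 0.88, 0.87 and 0.87), and Klhdc4, Wdr18 and Supt6 for Klf16 (r of 0.92, 0.92 and 0.91). These correlations over libraries carry no test, since libraries of a cell type share their culture and the search took the highest of many genes.

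**Figure D2:**
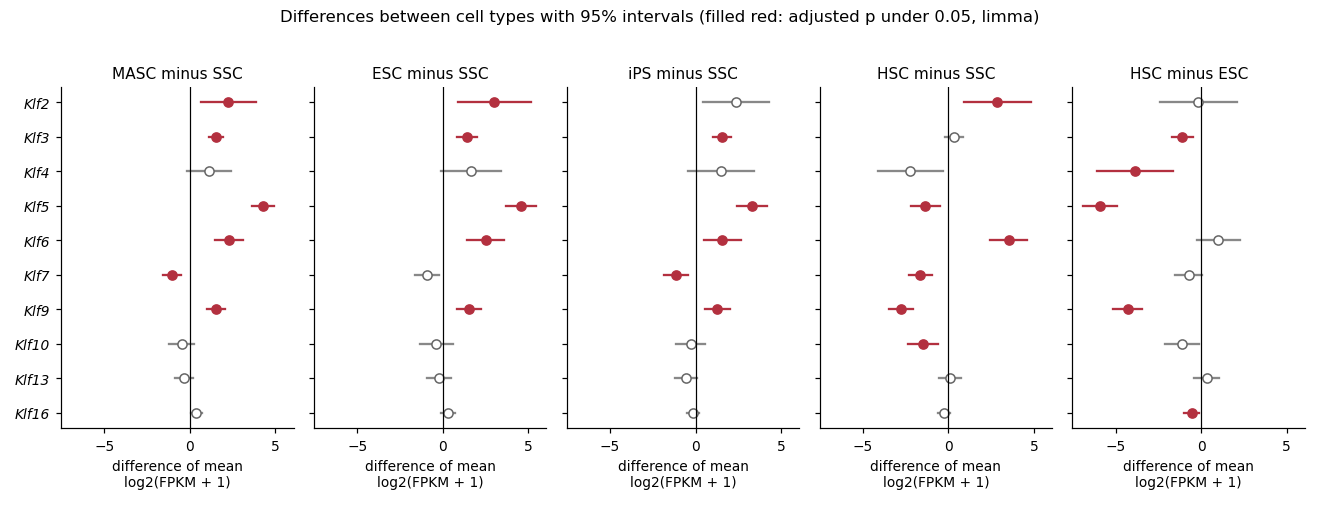
Difference of mean log2(FPKM + 1) between cell types on the horizontal axis for the 10 genes on the vertical axis, with the 95% interval as a line and filled red points for an adjusted p under 0.05 (limma). Klf5 is filled in all 5 comparisons drawn, to the right of 0 where MASCs, ESCs or iPS cells are compared with SSCs and to the left where HSC cultures are compared with SSCs or ESCs.

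The same test between ESCs and SSCs, which shares the SSC libraries with the comparison above, called 5 of the 10 genes higher beside 7.67% of all transcripts, namely Klf2, Klf3, Klf5, Klf6 and Klf9. The count was 2 without ESC.1 and 1 without the 4 libraries of the highest fibroblast sums described below. It called 0 lower beside 13.8%, and Klf7 alone was lower at an unadjusted p under 0.05. Between iPS cells and SSCs, 4 genes were higher beside 8.93% and 1 was lower beside 15.6% of all transcripts. The 4 were Klf3, Klf5, Klf6 and Klf9, and Klf7 was lower by 1.13 on the log2 scale (adjusted p = 0.0211). Klf6 in that comparison, at 1.57 ± 0.50 (adjusted p = 0.0403), kept its call in 9 of 16 fits with a library left out and stood at 0.96 (adjusted p = 0.387) without iPS.2. The Klf7 difference was -0.84 after quantile normalization (adjusted p = 0.0843) and with strain as a block (adjusted p = 0.131), and -0.75 (adjusted p = 0.177) without the 4 libraries of the highest fibroblast sums. Klf9, at 1.28 in the full set, was 1.17 (adjusted p = 0.0826) with the strain block and 0.90 (adjusted p = 0.0872) without those 4 libraries. Klf7 and Klf9 each lost the call without either iPS line, with an adjusted p of 0.168 for Klf7 and 0.107 for Klf9 without iPS.1. Klf2 in iPS cells, at 72.9 and 57.2 FPKM, differed from SSCs by 2.38 with an adjusted p of 0.0749.

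Among MASCs, ESCs and iPS cells, limma called 0 of the 10 genes in any pairing. Between MASCs and ESCs, 0.0306% of all transcripts were called, and 0 of the 10 genes had an unadjusted p under 0.05. The intervals differed in width: that of Klf3 ran from -0.43 to 0.63 and that of Klf16 from -0.31 to 0.46, whereas that of Klf2 ran from -2.80 to 1.25 and that of Klf4 from -2.19 to 1.13 on the log2 scale. Between iPS cells and ESCs, 0.309% of transcripts were called, and between iPS cells and MASCs 1.97%. Klf5 and Klf16 had an unadjusted p under 0.05 in both of these, 2 of the 10 genes each time and both lower in iPS cells, where 3.89% of all transcripts were lower at that threshold against ESCs and 6.44% against MASCs. Both comparisons share the iPS libraries. Klf5 was at -1.26 against ESCs (adjusted p = 0.44) and at -0.99 against MASCs (adjusted p = 0.258). For Klf16, iPS values of 14.7 and 15.8 FPKM lay below every MASC and ESC value, with differences of -0.47 (adjusted p = 0.55) and -0.54 (adjusted p = 0.122).

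The Oct4-GFP MASC lines differed from the other MASC lines. For Klf2, Klf3, Klf4, Klf6, Klf7, Klf13 and Klf16, both Oct4-GFP MASC lines lay above all 4 other MASC lines, which was so for 22.9% of 15274 expressed genes, and 0 of the 10 genes lay below in both, beside 26.4%. Klf4 was at 123 and 70.0 FPKM in the Oct4-GFP lines and at 30.7 to 39.8 FPKM in the other 4. Klf13 was at 15.2 and 14.4 FPKM against 6.88 to 9.79 FPKM. Among SSCs, the Oct4-GFP lines lay below the other SSC lines for Klf2, Klf3 and Klf5, and the rest of the 10 genes overlapped. For Klf2 and Klf3 this is the reverse of the MASC order, whereas MASC values of Klf5 overlapped between strains. How many of all genes had this order among SSCs was not counted, so it is not read as particular to these genes. With 2 lines a strain, no test was made. The Oct4-GFP MASC lines also had fibroblast sums of 832 and 102 FPKM, against 16.3 to 46.9 FPKM in the other MASC lines. Their immediate-early sums, given below, were higher as well, so that strain and these differences cannot be told apart.

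**Figure D3:**
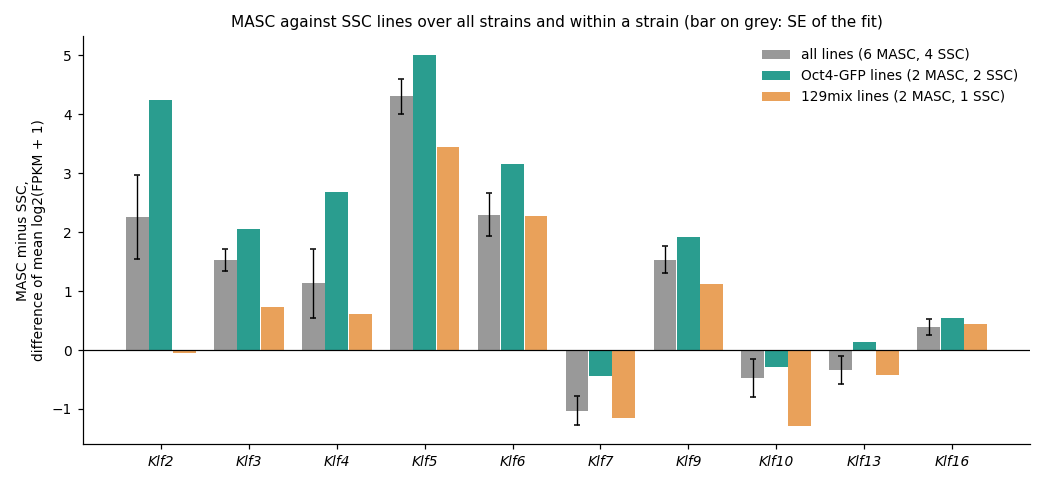
Difference of mean log2(FPKM + 1) between MASCs and SSCs on the vertical axis for each gene, over all lines (grey, with the SE of the fit), within Oct4-GFP lines (green) and within 129mix lines (orange). Klf5 stands at 5.01 and 3.44 within the 2 strains, whereas Klf2 stands at 4.25 and -0.05.

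Some of the 10 genes were also read beside other transcripts in each line. The summed FPKM of 10 immediate-early genes (Fos, Jun, Egr1 and others) was 711 in MASC.1, 487 in MASC.2 and 456 in ESC.1, and 172 to 211 in the other MASC lines and ESC.2. Klf4 in those 3 Oct4-GFP lines was 123, 70.0 and 120 FPKM, and 30.7 to 39.9 FPKM in the others. Beyond these lines, iPS cells had sums of 161 and 236 FPKM with Klf4 at 60.9 and 62.4 FPKM, which may include cassette reads. SSC.1 to SSC.4 had sums of 321, 279, 449 and 165 FPKM, with Klf4 at 25.0, 7.21, 50.1 and 21.8 FPKM. In MEFs the sum was 1182 FPKM with Klf4 at 40.6 FPKM. In HSC cultures the sums were 1484 and 2216 FPKM, with Klf4 at 0.774 and 11.9 FPKM. The study's methods plated SSCs on gelatin before collection to remove feeder cells. Fibroblast sums were also high in MASC.1 (832 FPKM) and ESC.1 (316 FPKM), and MEFs themselves had Klf4 at 40.6 FPKM, Klf2 at 44.2 FPKM and Klf6 at 54.5 FPKM. Their part in the levels of Klf2, Klf4 and Klf6 was not tested. Without the 4 SSC, MASC and ESC libraries of the highest fibroblast sums (SSC.1, SSC.3, MASC.1 and ESC.1; chosen after the data were seen), the difference of Klf5 between MASCs and SSCs was 4.00 (adjusted p = 0.00181) and that of Klf6 was 2.57 (adjusted p = 0.00998). Klf2, at 2.21 (adjusted p = 0.178), and Klf7, at -0.67 (adjusted p = 0.165), then lost the call, and Klf10, at -1.04 (adjusted p = 0.0497), and Klf16, at 0.57 (adjusted p = 0.00724), gained it.

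**Figure D4:**
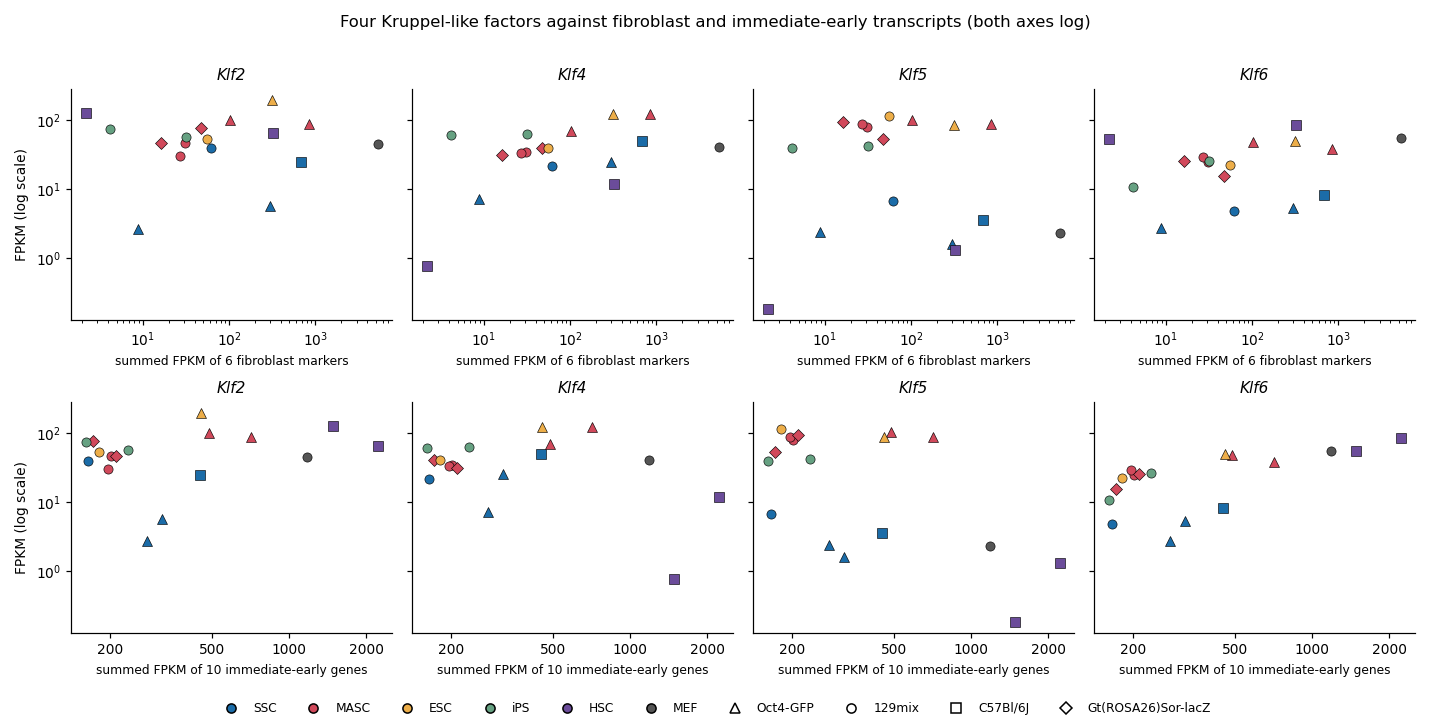
FPKM of Klf2, Klf4, Klf5 and Klf6 (vertical axes, log scale) against the summed FPKM of 6 fibroblast markers (upper row) and of 10 immediate-early genes (lower row; both horizontal axes log scale), with 1 point per library, colour for cell type and shape for strain. The Oct4-GFP MASC and ESC lines (triangles) lie to the right of the other MASC and ESC lines in the lower row, at 456 to 711 FPKM against 172 to 211 FPKM.

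The shares of the 10 genes in their sum differed between libraries. FPKM is a value per transcript length, so the levels of the genes can be added and compared. Their summed level was 155 ± 39.8 FPKM in SSCs (SD, n = 4) and 364 ± 90.5 FPKM in MASCs (SD, n = 6). ESCs had 602 and 343 FPKM, iPS cells 298 and 308 FPKM, HSC cultures 230 and 221 FPKM, and MEFs 208 FPKM. These sums leave out the other 7 Klf genes, which added 32.2 to 45.3 FPKM in SSCs and 15.4 to 22.2 FPKM in MASCs. The summed FPKM of all transcripts was also lower in SSCs (427143 to 517480) than in MASCs (557520 to 665975). Klf10 made up the largest share in SSC.1, SSC.2 and SSC.4, where its share was 24.3%, 40.2% and 29.1%, and Klf4 did so in SSC.3, with 29.0%. In MASCs, Klf5 held 23.4% ± 5.4 (SD, n = 6) and was the largest in 4 of the 6 lines. Klf2, Klf4 and Klf5 together made up 28.6% ± 14.6 in SSCs, ranging from 10.7% to 45.4%, and 55.0% ± 4.6 in MASCs, ranging from 49.0% to 62.0%, so that the ranges did not overlap. Their share was 66.8% and 60.1% in ESCs, and 58.2% and 52.4% in iPS cells. HSC cultures had 55.1% and 35.5%, and MEFs 41.9%, so that HSC.1 lay within the MASC range.

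**Figure D5:**
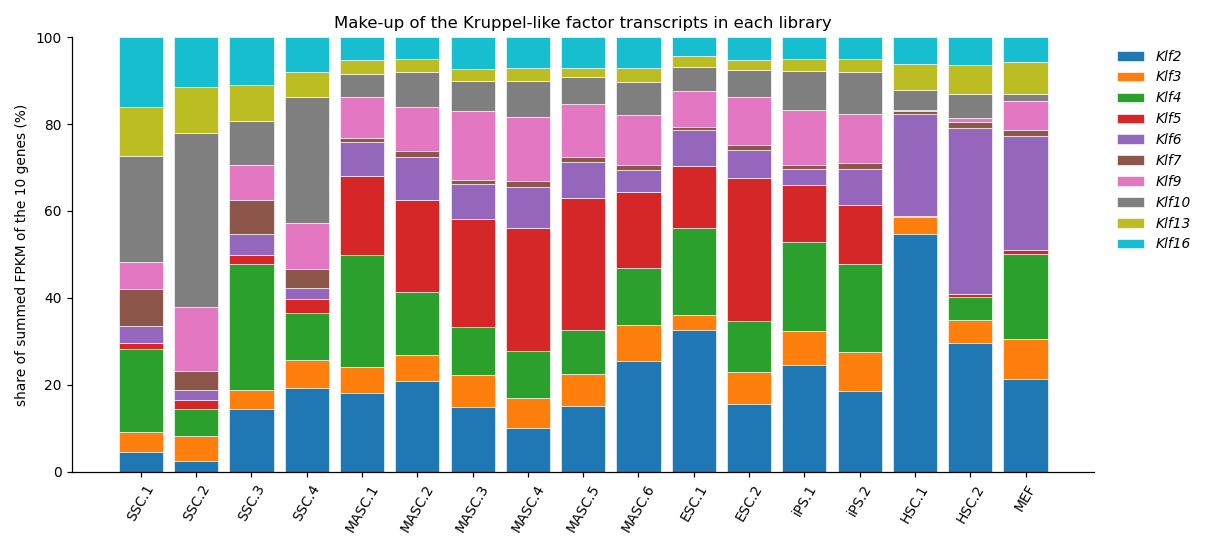
Share of each gene in the summed FPKM of the 10 genes (vertical axis, percent) in each of the 17 libraries (horizontal axis), as stacked bars. Klf5 fills 1.23% to 3.29% of the SSC bars and 17.3% to 30.5% of the MASC bars, and Klf2 with Klf6 fills most of both HSC bars.

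In HSC cultures, whose libraries also carried the mast cell transcripts given above, Klf2 and Klf6 had the highest levels of the 10 genes. Klf2 was at 126 and 65.5 FPKM and Klf6 at 53.8 and 84.5 FPKM, with shares of the 10 genes of 54.7% and 29.6% for Klf2 and of 23.3% and 38.2% for Klf6. Endothelial markers (Pecam1, Cdh5, Kdr and Tek) summed to 42.4 FPKM, with 1 of 4 at 1 FPKM or more, in HSC.1 and to 25.2 FPKM, with 4 of 4, in HSC.2, against 1.18 to 18.6 FPKM elsewhere, and immediate-early genes summed to 1484 and 2216 FPKM. Their part in the Klf2 and Klf6 levels was not tested. Klf4 was at 0.774 and 11.9 FPKM, Klf5 at 0.181 and 1.30 FPKM, and Klf9 at 0.580 and 2.17 FPKM. The higher value of each of these 3 genes was in HSC.2, where 15444 transcripts reached 1 FPKM against 13532 in HSC.1. The fibroblast sum was 323 FPKM in HSC.2 against 2.20 FPKM in HSC.1, and its part in these levels was not tested. Compared with SSCs, HSC cultures had 2 genes higher beside 12.7% of all transcripts, Klf2 by 2.86 ± 0.89 (adjusted p = 0.0262) and Klf6 by 3.53 ± 0.50 (adjusted p = 0.000178). They had 4 lower beside 20.7%, namely Klf5 at -1.34, Klf7 at -1.64, Klf9 at -2.77 and Klf10 at -1.50 on the log2 scale. Klf4, at -2.22 in this comparison, did not pass the limma test (adjusted p = 0.0728). The Klf2 call was lost without HSC.1 (2.40, adjusted p = 0.169), HSC.2 or SSC.1, and those of Klf5 (-0.86, adjusted p = 0.234) and Klf10 (-1.41, adjusted p = 0.0755) without HSC.1. With strain as a block, the calls of Klf2 (1.84, adjusted p = 0.416), Klf5 (-1.47, adjusted p = 0.103) and Klf10 (-0.53, adjusted p = 0.441) were lost, that of Klf5 was also lost after quantile normalization (-0.96, adjusted p = 0.0503), and that of Klf2 without the 4 libraries of the highest fibroblast sums (2.92, adjusted p = 0.0688). Compared with MASCs, 5 were lower beside 16.8% (Klf3 at -1.22, Klf4 at -3.36, Klf5 at -5.65, Klf9 at -4.30 and Klf16 at -0.65), and compared with ESCs 5 were lower beside 13.1% (Klf3 at -1.12, Klf4 at -3.88, Klf5 at -5.92, Klf9 at -4.31 and Klf16 at -0.57). In both, 0 of the 10 genes were called higher, beside 14.8% of all transcripts against MASCs and 12.4% against ESCs, and at an unadjusted p under 0.05 the count was 1 (Klf6) against MASCs and 0 against ESCs. Compared with iPS cells, Klf6 was higher by 1.96 ± 0.58 (adjusted p = 0.0252), 1 gene beside 12.9%, and Klf3, Klf4, Klf5 and Klf9 were lower, 4 genes beside 14%. The Klf6 call there was lost without iPS.1 (1.35, adjusted p = 0.22) or HSC.2 (1.64, adjusted p = 0.144), and it was 0.79 (adjusted p = 0.604) with strain as a block. The Klf4 call was lost without HSC.1 against MASCs (-1.93, adjusted p = 0.165), ESCs (-2.45, adjusted p = 0.126) and iPS cells (-2.28, adjusted p = 0.15), against ESCs also without ESC.1, and against iPS cells also without either iPS line. The Klf3 call against ESCs was lost without ESC.2 or HSC.1, the Klf16 call against MASCs without HSC.1 or HSC.2, and the Klf16 call against ESCs held in 3 of 16 such fits. The strain block ended the Klf3 calls against MASCs (adjusted p = 0.124), ESCs (adjusted p = 0.2) and iPS cells (adjusted p = 0.208) and the Klf16 call against ESCs (adjusted p = 0.0941). Without the 4 libraries of the highest fibroblast sums, Klf4 against ESCs was -3.10 (adjusted p = 0.086). Strain is C57Bl/6J in both HSC cultures and in SSC.3 alone among the other libraries.

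The single MEF library held Klf6 at 54.5, Klf2 at 44.2 and Klf4 at 40.6 FPKM as the highest of the 10 genes, and Klf5, Klf7 and Klf10 at 2.29, 2.90 and 3.61 FPKM. Between MEFs and the iPS cells, Klf5 and Klf10 were higher in iPS cells by 3.66 and 2.67 on the log2 scale, past a difference of 2 that 5.15% of all transcripts passed upwards. Klf6 differed by -1.66, and 0 of the 10 genes were lower by 2 or more, beside 5.45% of all transcripts. There is no replicate for MEFs, so that no test was made. Klf4 differed by 0.59, a value that may include reads from the cassette.

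Ordered by mean log2(FPKM + 1), Klf5 ran from ESCs at the top through MASCs, iPS cells, SSCs and MEFs to HSC cultures. ESCs, MASCs and iPS cells did not pass the test among each other, whereas iPS cells and SSCs did. Klf6 ran from HSC cultures at the top through MEFs, ESCs, MASCs and iPS cells to SSCs, and the steps from MEFs to ESCs to MASCs to iPS cells did not pass or could not be tested. By this mean, SSCs were the lowest cell type for Klf2, Klf3 and Klf6 and the highest for Klf7 and Klf10. The step from SSCs to HSC cultures for Klf3 (adjusted p = 0.372) and those from SSCs to MASCs, ESCs and iPS cells for Klf10 (adjusted p = 0.325, 0.668 and 0.718) did not pass the test, nor did the difference of Klf2 between iPS cells and SSCs or of Klf7 between ESCs and SSCs. Klf13 lay between 3.26 and 4.00 in every cell type on this scale, and limma called it in 0 of the 10 comparisons, at an unadjusted p under 0.05 as well.

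Other genes of the family and its partners were read from lists. Of the 7 other Klf genes, 2 were higher and 3 lower in MASCs than in SSCs, with a median difference of -0.29. As for the 10 genes, the counts of this list and of those that follow stand beside 11.4% of all transcripts higher and 19.5% lower. Klf11 was at 24.4 ± 4.44 FPKM (SD, n = 4) in SSCs and 8.79 ± 3.16 FPKM (SD, n = 6) in MASCs, and Klf8 at 10.7 ± 3.0 and 4.09 ± 1.03 FPKM. Klf12 was at 0.224 ± 0.0855 and 1.83 ± 0.817 FPKM, a log2 difference of 1.17 (adjusted p = 0.00114). The Klf8 call was lost without the 4 libraries of the highest fibroblast sums (-0.96, adjusted p = 0.0642). Of the 9 Sp factors, the sister family that binds the same GC-rich sites, 2 were higher and 3 lower, with a median of -0.31, and Sp4 fell by 1.71 on the log2 scale (adjusted p = 5.28e-07). These genes are named after their values were seen, since none of either list passed a log2 difference of 2.

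Among 10 cofactors and ubiquitin ligases, 2 were higher and 2 lower in MASCs. Ctbp2, the corepressor that Klf3 recruits, was at 15.4 ± 4.02 FPKM (SD, n = 4) in SSCs and 111 ± 21.8 FPKM (SD, n = 6) in MASCs, a log2 difference of 2.79 ± 0.20 (adjusted p = 8.71e-06). Of 13 upstream regulators, 0 were higher and 5 lower. Jak1, a kinase of the LIF receptor pathway, was at 72.0 ± 8.87 FPKM in SSCs and 14.0 ± 4.24 FPKM in MASCs, a difference of -2.32 ± 0.18 (adjusted p = 1.41e-05). Stat3, the factor that this kinase activates, was lower by 1.41 on the log2 scale (adjusted p = 0.00031); it was named after its values were seen. Of 11 genes of the pluripotency network, 9 were higher, with a median of 3.02. Pou5f1, Sox2 and Nanog differed by 6.66, 6.27 and 6.03 on the log2 scale. Of 8 genes reported as targets of Klf factors, 4 were higher and 0 lower. Tagln, a smooth muscle gene, differed by 4.44 and Lgals3 by 2.14, and both were also high in MEFs, at 826 and 104 FPKM. Of 10 immediate-early genes, Ier2 was higher by 2.03, and Egr1 and Egr2 were at -2.45 and -2.46.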

How the data were processed

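RNA-seq of 17 libraries was analysed from 1 table per library. The authors deposited an FPKM with its confidence bounds for each RefSeq transcript, and the coverage that Cufflinks gave, an unnormalized signal giving the mean read depth of each transcript. Per the study's methods and processing notes, TruSeq libraries were aligned to mm9 with TopHat2 2.0.11, PCR duplicates and reads with several locations were excluded, and Cufflinks (version not given in the sources used here) was run with upper-quartile and GC normalization. Reads shared by near-identical copies were thus dropped, and a transcript with few unique bases can be underestimated. The depth in read counts is unknown, so that no count model and no interval from counts was used.

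Of 33262 rows per table, 601 further loci of a transcript were left out, which left 32661 transcripts. Locus starts were counted from 0 in the tables and are given counted from 1. Values were used as log2(FPKM + 1), a pseudocount of 1, with no filter. The tests used limma 3.58.1 (R 4.3.3, eBayes without trend), in 1 fit of the 12 SSC, MASC and ESC lines, and in a second fit of 16 libraries for comparisons with iPS cells and HSC cultures. Benjamini-Hochberg adjustment ran over all transcripts. The procedure was run on simulated data with independent noise. Such data hold no effect shared within a strain or from feeders, so the run cannot speak to those. Lines are separate samples by the labels, but several share a strain, and p-values measure the spread between lines. The paper states that the MASC and ESC lines were subcloned. Whether the MASC lines of a strain came from separate conversions is not given, and the fit took them as independent.

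The 10 members and the gene lists were chosen with earlier results of these data known. Named from each list were the genes past an adjusted p of 0.05 and a log2 difference of 2, at most 3 by size, and for each member the 3 genes with the highest Pearson's r among genes at 1 FPKM in at least 2 libraries, except where the text says otherwise or a gene is not reported here. Alternatives were a pseudocount of 0.1, a filter, quantile normalization, a trend with robust estimation, blocks for replicate number and strain, FPKM summed per gene, all 17 libraries in 1 fit, each library left out, and Spearman's rho. Promoter sequences are those of RefSeq on GRCm38.p6; no coordinates were converted between builds. ChIP-seq data were not analysed here.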

Additional observations from a re-analysis of the deposited data

How the results depend on the processing

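Direction was kept by every called difference of the 10 genes under each alternative run, which do not include the within-strain differences (Klf2 between MASCs and SSCs was -0.05 within 129mix lines). Of the alternative values, 59 of 2380 changed sign, all of them uncalled both ways. Counts of Klf genes past the threshold moved by over 1.5 times as follows, and the cause was not tested. MASC minus SSC, lower: 1, and 0 after quantile normalization or with strain as a block; 1 to 2 with each library left out (2 without SSC.3, when Klf10 joined Klf7). ESC minus SSC, higher: 5, and 1 without the 4 libraries of the highest fibroblast sums, an alternative chosen after seeing the data; 2 to 5 with each library left out (2 without ESC.1). ESC minus SSC, lower: 0, and 1 with the filter on low values; 0 to 1 with each library left out (1 without SSC.2). iPS minus MASC, lower: 0, and 1 without the fibroblast-high libraries. iPS minus SSC, higher: 4, with 2 to 4 when each library is left out (2 without iPS.2). iPS minus SSC, lower: 1, and 0 after quantile normalization, with the strain block or without the fibroblast-high libraries; 0 to 1 with each library left out (0 without iPS.1 or iPS.2). HSC minus SSC, higher: 2, and 1 with the strain block or without the fibroblast-high libraries; 1 to 3 with each library left out (1 without SSC.1, HSC.1 or HSC.2). HSC minus SSC, lower: 4, and 2 with the strain block; 2 to 5 with each library left out (2 without HSC.1). HSC minus MASC, higher: 0, and 1 with the filter; 0 to 1 with each library left out (1 without MASC.2). HSC minus MASC, lower: 5, with 3 to 6 when each library is left out (3 without HSC.1). HSC minus ESC, lower: 5, and 3 with the strain block or without the fibroblast-high libraries; 2 to 5 with each library left out (2 without HSC.1, 3 without ESC.1). HSC minus iPS, higher: 1, and 0 with the strain block; 0 to 1 with each library left out (0 without iPS.1 or HSC.2).

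Replicate numbers recur between cell types, and some same-numbered libraries also share a strain. Deviations from the group mean correlated at -0.03 on average for the 4 same-numbered pairs of SSC and MASC lines (-0.23 to 0.18) and at 0.00 for their 20 other pairs, so that the numbers were not taken to pair them. ESC, iPS and HSC libraries, 2 each, were not checked. With the replicate block, the count was 0 for MASC minus SSC lower, 1 for ESC minus SSC higher, 0 for iPS minus SSC lower, 1 for HSC minus SSC higher, 2 for HSC minus ESC lower and 0 for HSC minus iPS higher.

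Among all called transcripts, the share that was higher moved by over 10 percentage points after quantile normalization in 4 comparisons: from 35.8% to 46.7% for ESC minus SSC, from 36.5% to 48.1% for iPS minus SSC, from 38.1% to 50.4% for HSC minus SSC and from 55.6% to 65.7% for iPS minus MASC. Without HSC.1 it moved to 52.3% for HSC minus SSC, from 46.8% to 61.3% for HSC minus MASC, from 48.5% to 63.2% for HSC minus ESC and from 47.9% to 62.0% for HSC minus iPS. Without 1 ESC or iPS line it ranged from 38.5% to 86.9% for iPS minus ESC, and it was 84.2% without iPS.1 and 73.3% without iPS.2 for iPS minus MASC, where few transcripts were called. The genes of most like pattern depended on the measure: by Spearman's rho, 0 of the 3 were the same for 7 of the 10 genes, 1 for Klf6 and Klf10, and 2 for Klf16. Groups of 2 libraries and a MEF sample of 1 limit what can be told apart, and the values of Klf5, Klf9 and Klf4 in HSC.1, under 1 FPKM, rest on a coverage of 0.257, 0.934 and 1.27 reads per base.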

Other observations

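Of the 7 other Klf genes, 1 was higher and 5 were lower in HSC cultures than in ESCs, beside 12.4% and 13.1% of all transcripts. Klf1, the erythroid factor of the family, was at 2.22 FPKM on average in HSC cultures (1.06 and 3.38) and at 0.291 FPKM in ESCs, and its call was lost without ESC.2 (adjusted p = 0.062), without HSC.2 (log2 difference 0.67, adjusted p = 0.0638) and with strain as a block (adjusted p = 0.283). Klf11 was at -2.19 and Klf8 at -2.07 on the log2 scale, with limma adjusted p values of 0.0065 and 0.00207. The Klf11 difference was -1.36 (adjusted p = 0.0638) without ESC.1, -1.83 (adjusted p = 0.0517) without HSC.1 and -1.95 (adjusted p = 0.0567) with the strain block. Of the 9 Sp factors, 0 were higher and 2 were lower.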
